A study of Mus musculus with 5 samples.

Results

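Matrix metalloproteinases and their tissue inhibitors were followed as 10 genes in macrophages from Matrigel plugs: the proteases Mmp2, Mmp8, Mmp9, Mmp12, Mmp13, Mmp14 and Mmp19 and the inhibitors Timp1, Timp2 and Timp3. They were chosen by gene name. The platform annotation gave these symbols to 23 of the 45101 probe sets on the array, and 0 of the 23 carried a second symbol. Of these, 22 were tested, with at least 1 probe set for each of the 10 genes, and 1 Timp3 probe set lay at the floor of detection on all 5 arrays.

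The tumoricidal group comprised 3 arrays of CD11b+ cells sorted from subcutaneous Matrigel that held MOPC315, a mouse myeloma line. The control group comprised 2 arrays of CD11b+ cells from Matrigel that held an antigen-loss form of the same line. All hosts were Balb/c SCID mice aged 7 to 12 weeks, with a transgenic T-cell receptor for the MOPC315 idiotype, and cells were taken on day 8. SCID mice lack most B and T cells of their own but keep myeloid and natural killer cells, and both groups carried the transgene. CD11b is also found on neutrophils, monocytes and natural killer cells. The labels call the samples biological replicates, and the sources used here do not give how many mice stood behind each array. Adgre1, Csf1r and Cd68, used as macrophage markers, had signals of 1334 or more in tumoricidal and 793 or more in control samples, far above the floor of detection. Itgam, which encodes CD11b itself, had 466 to 1135 in tumoricidal and 417 to 931 in control samples. The comparison asks how macrophages sharing a plug with antigen-bearing myeloma cells differed from those sharing it with antigen-loss cells.

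Matrix metalloproteinases are zinc enzymes made as inactive precursors, which cut collagens, elastin and basement membrane proteins and also process cytokines and surface receptors. Tissue inhibitors of metalloproteinases (Timps) bind the active site one to one and block it. Macrophages are known as the main source of Mmp12, and neutrophils store Mmp8 and Mmp9 in granules. Matrigel itself is a basement membrane extract, so invading cells meet laminin and collagen IV.

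Signals are linear, scaled to a common array median, with a floor of 4.8 under which values have no order. The labels name no batch, but the signal of BioC, a control RNA added to every sample, split the arrays into a pair of sets: its mean was 685 and 611 in tumoricidal replicates 1 and 2 and 617 in control replicate 1 (set A), against 167 in tumoricidal replicate 3 and 175 in control replicate 2 (set B). Differences are therefore also given within each set, where set B holds 1 array per group. With 3 arrays against 2, the number of arrays limits precision throughout.

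Mmp12 and Mmp14 were higher in each of the 3 tumoricidal arrays than in both control arrays, Mmp12 by the widest margin. The same held for Mmp13 after scaling to the common median, but not in the signals as deposited. Mmp19 leaned the same way, with overlap. After the same scaling, Mmp2, Mmp8, Mmp9, Timp1 and Timp3 overlapped between the groups. In the signals as deposited, however, the second Mmp9 probe set was lower in each tumoricidal array than in both control arrays. Timp2 had negative log2 differences on 5 of its 6 probe sets, and on all 6 with the deposited scaling or quantile normalization. Without control replicate 2, however, most of its probe sets were positive. None of the member differences passed limma with Benjamini-Hochberg adjustment over all probe sets: 0 of 22 member probe sets were called, against 0.0341% called higher and 0.0171% called lower of all 41053 probe sets tested, and the lowest adjusted p among the 22 was 0.292. At an unadjusted p under 0.05 there were 2 member probe sets higher and 1 lower, against 4.92% and 3.07% of all probe sets. Taking 1 probe set per gene, the groups did not overlap at 3 of 10 genes that were higher and 0 that were lower, against 17% and 6.51% of all genes. The groups did not overlap at 5 member probe sets that were higher, 3 of them of Mmp14, and 1 that was lower, against 13.3% and 7.6% of all probe sets. As deposited, without the scaling, these counts were 4 higher and 3 lower, against 7.53% and 15.2% of all, and with quantile normalization 5 higher and 4 lower, against 10.4% and 11.1%. As the arrays are bulk samples, fewer cells of a type and less RNA per cell cannot be told apart.

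**Figure D1:**
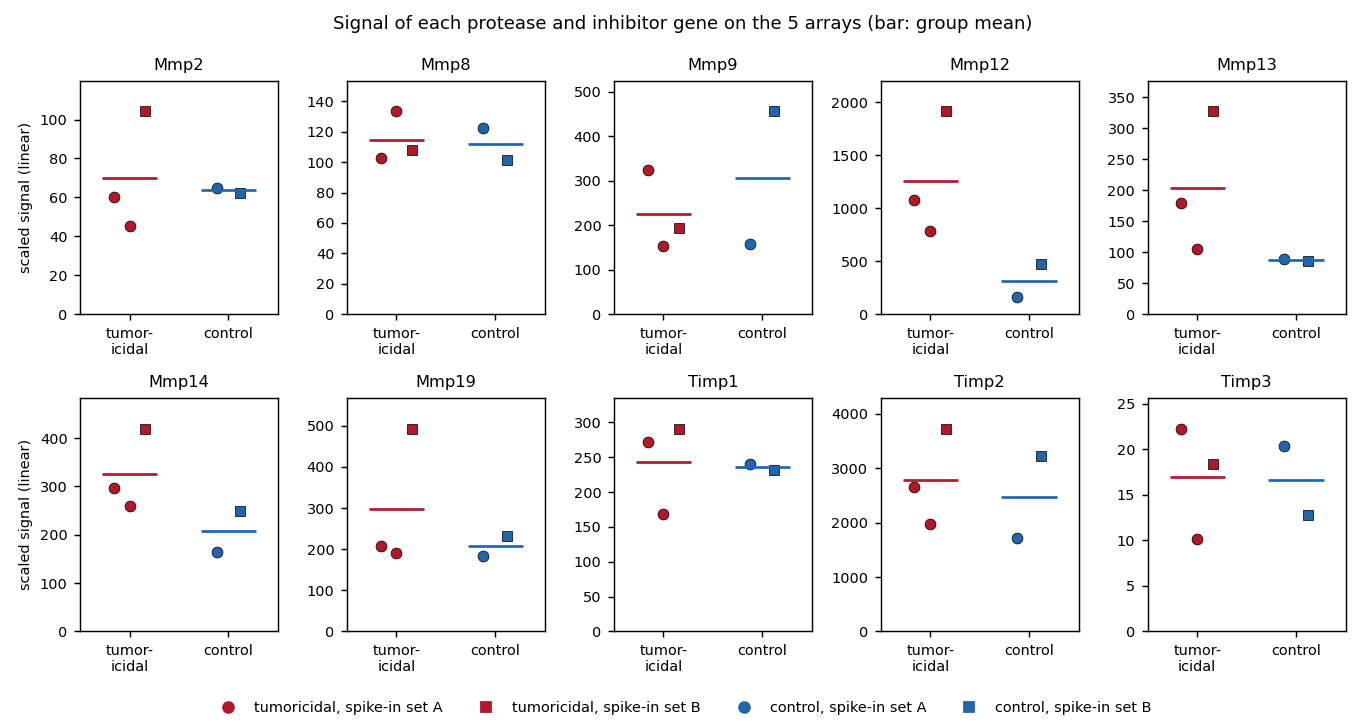
Scaled linear signal of the 10 genes on each array, with tumoricidal arrays left of control arrays, bars at group means and marker shape giving the spike-in set. On this scale Mmp12, Mmp13 and Mmp14 have no tumoricidal array below a control array (for Mmp13 this fails in the signals as deposited), while the groups of the other 7 genes overlap.

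Mmp12, macrophage elastase, had signals of 1075, 782 and 1912 in tumoricidal replicates 1 to 3, against 163 and 469 in control replicates 1 and 2. The lowest tumoricidal array was thus above the higher control array, although control replicate 2 lay well above control replicate 1. Means were 1256 ± 586 (SD, n = 3) in tumoricidal and 316 ± 216 (SD, n = 2) in control samples. The log2 difference was 2.08 (SE 0.59, 95% interval 0.63 to 3.54), a 4.24-fold difference, with an unadjusted p of 0.0131 and a limma adjusted p of 0.433. Within set A it was 2.49 and within set B 2.03. With the set as a block the difference was 2.29 with a smaller error (SE 0.27, adjusted p = 0.201). It depended on which control array was kept: 1.32 without control replicate 1 and 2.85 without control replicate 2. Control replicate 1 also stood apart in a measure of RNA quality, the log2 ratio of the 3′ to the 5′ actin control probe sets, which was 0.31, 0.32 and 0.29 in tumoricidal samples against 0.56 and 0.28 in control samples. For Gapdh that ratio was -0.33, -0.21 and -0.31 in tumoricidal samples against -0.17 and -0.35 in control samples. The part of RNA quality in the Mmp12 and Mmp14 differences was not tested.

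Mmp13, the main interstitial collagenase of mice, had 179, 104 and 327 in tumoricidal samples against 89.6 and 85.4 in control samples. The control arrays lay close together and the tumoricidal arrays were spread widely, with replicate 2 only just above the controls. In the signals as deposited the groups overlapped, with 176, 108.5 and 280 in tumoricidal samples against 112.5 and 85.4 in control samples. The log2 difference was 1.06 (SE 0.50, 95% interval -0.17 to 2.30, adjusted p = 0.714), and without tumoricidal replicate 3 it was 0.65. It was 0.61 within set A and 1.94 within set B.

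Mmp12, Mmp13 and Mmp8 lie in 1 run of metalloproteinase genes on mouse chromosome 9, in the order Mmp13, Mmp12, Mmp1b, Mmp3, Mmp1a, Mmp10, Mmp8. Promoter windows, 250 bases before to 50 bases after a start site, were matched by symbol in RefSeq (GRCm38.p6) for 7 of the 10 genes. Metalloproteinase promoters are known for sites of AP-1, the Fos and Jun factor, so TGAGTCA was searched on both strands (TGACTCA on the other), and capitals mark it. The windows of Mmp12, Mmp13 and Mmp14 are shown because these genes had the groups apart after scaling. That of Mmp8 is shown because it lies in the same run as Mmp12 and Mmp13 and had overlapping groups. The windows shown lie on the plus strand at chr9:7347124-7347423 (the second of a pair of Mmp12 windows), chr9:7272264-7272563, chr14:54431348-54431647 and chr9:7558179-7558478.
Mmp12: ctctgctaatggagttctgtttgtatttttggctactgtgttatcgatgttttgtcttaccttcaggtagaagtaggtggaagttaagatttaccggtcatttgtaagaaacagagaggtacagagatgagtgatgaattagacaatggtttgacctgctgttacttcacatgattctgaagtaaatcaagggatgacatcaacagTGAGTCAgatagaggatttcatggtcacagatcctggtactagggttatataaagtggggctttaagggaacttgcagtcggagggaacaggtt
Mmp13: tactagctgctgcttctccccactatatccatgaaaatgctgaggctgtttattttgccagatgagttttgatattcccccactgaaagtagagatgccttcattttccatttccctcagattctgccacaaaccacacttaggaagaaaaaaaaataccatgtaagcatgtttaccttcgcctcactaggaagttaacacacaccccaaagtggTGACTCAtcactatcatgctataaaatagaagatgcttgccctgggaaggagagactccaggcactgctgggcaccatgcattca
Mmp14: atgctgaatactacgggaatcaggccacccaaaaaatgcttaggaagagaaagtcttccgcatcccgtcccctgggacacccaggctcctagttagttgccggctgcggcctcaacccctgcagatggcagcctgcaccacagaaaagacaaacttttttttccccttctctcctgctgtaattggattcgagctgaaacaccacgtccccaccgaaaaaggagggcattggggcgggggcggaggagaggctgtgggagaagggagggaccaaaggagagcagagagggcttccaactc
Mmp8: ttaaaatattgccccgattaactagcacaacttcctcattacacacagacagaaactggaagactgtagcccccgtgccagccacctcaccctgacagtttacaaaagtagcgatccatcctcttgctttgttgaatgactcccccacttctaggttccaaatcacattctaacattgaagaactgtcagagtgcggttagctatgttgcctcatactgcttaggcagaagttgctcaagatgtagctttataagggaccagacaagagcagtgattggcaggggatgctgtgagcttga
The motif starts at position -44 of the Mmp12 window shown and, on the other strand, at position -35 in Mmp13, counted from the start site. It has no match in the first Mmp12 window or in those of Mmp8, Mmp14, Timp1, Timp2 and Timp3. Of all 32851 promoter windows, 5.2% hold it. The interferon-type STAT motif TTCNNNGAA, which reads the same on both strands and is held by 8.3% of all windows, has 0 matches in the 8 member windows. Another 2 motifs were searched on both strands. AGGAAG, of ETS factors, is held by 35.4% of all windows. It matches in the first Mmp12 window and in those of Mmp8, Mmp13, Mmp14, Timp1 and Timp3. TATAAA, held by 13.6% of all windows, matches in the second Mmp12 window and in those of Mmp8 and Mmp13. A match of letters is a description and not a binding site.

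Mmp14, the membrane-anchored protease that activates the precursor of Mmp2 together with Timp2, was measured on 3 probe sets. The one with the highest mean had 298, 260 and 420 in tumoricidal samples against 165 and 249 in control samples. The second had 140, 114 and 225 in tumoricidal samples against 60.3 and 108 in control samples. The third had 56.8, 52.7 and 71.8 in tumoricidal samples against 16.2 and 40.6 in control samples. On all 3 the groups were apart, in the same order of arrays. Tumoricidal replicate 3 was highest, control replicate 1 lowest, and control replicate 2 next below tumoricidal replicate 2. The log2 differences were 0.65, 0.93 and 1.23 (SE 0.33, 0.42 and 0.44), with adjusted p of 0.751, 0.692 and 0.571. The 95% intervals ran from -0.17 to 1.48, from -0.11 to 1.96 and from 0.14 to 2.31. Within the sets the first gave 0.75 in A and 0.75 in B, the second 1.07 and 1.06, and the third 1.76 and 0.82. Without control replicate 1 they were 0.36, 0.51 and 0.56. The 3 probe sets read the same RNA and are not replicates of the condition.

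Mmp19, a secreted protease that cleaves basement membrane proteins, had 208, 191 and 493 in tumoricidal samples against 183 and 231 in control samples. Only tumoricidal replicate 3 stood above both controls, and the log2 difference was 0.39 (SE 0.47, adjusted p = 0.858). Its second probe set had 99.5, 61.3 and 234 in tumoricidal samples against 39.0 and 94.7 in control samples, a log2 difference of 0.89 (SE 0.67, adjusted p = 0.813). Within sets A and B these were 0.13 and 1.09 on the first and 1.001 and 1.31 on the second. Without tumoricidal replicate 3 the first was -0.046.

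The gelatinases, which cut denatured collagen and collagen IV, gave no common direction. Mmp9 had 325, 153 and 194 in tumoricidal samples against 158 and 455 in control samples. Control replicate 2 was the highest of the 5 arrays and control replicate 1 among the lowest, so the control values enclosed those of tumoricidal replicates 1 and 3. The log2 difference was -0.33 (SE 0.56, 95% interval -1.71 to 1.04, adjusted p = 0.890), 0.50 within set A and -1.23 within set B. Its second probe set had 194, 149 and 184 in tumoricidal samples against 166 and 365 in control samples, a log2 difference of -0.50 (SE 0.39, adjusted p = 0.819). That value was -1.07 without control replicate 1 and 0.069 without control replicate 2. In the signals as deposited, the groups of this second probe set were apart and lower. It then had 191, 154 and 158 in tumoricidal samples against 209 and 365 in control samples.

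Mmp2 was dimmer, with 60.4, 45.5 and 104 in tumoricidal samples against 64.9 and 62.4 in control samples. The control arrays lay inside the tumoricidal range. The log2 difference was 0.051 (SE 0.40, 95% interval -0.93 to 1.03, adjusted p = 0.977), and the second probe set gave -0.035 (SE 0.47). Both probe sets were negative within set A (-0.31 and -0.33) and positive within set B (0.74 and 0.61).

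Mmp8, the neutrophil collagenase, had 103, 133 and 108 in tumoricidal samples against 122 and 101 in control samples. It had the smallest SE of the protease probe sets, with a log2 difference of 0.035 (SE 0.26, 95% interval -0.60 to 0.67, adjusted p = 0.976). Within the sets it was -0.065 in A and 0.098 in B. Differences of neutrophil markers were larger: 8 of 11 measured markers had positive differences, with a median of 0.91 against 0.13 over all genes. Their summed signal was 9887 to 11342 in tumoricidal samples and 4446 to 7352 in control samples, of which S100a8 and S100a9, also expressed by monocytes, made up 84.0% to 88.2%. Without that pair the other 9 summed to 1425, 1165 and 1614 in tumoricidal samples against 713 and 1039 in control samples. S100a8, a neutrophil and monocyte alarmin, had 4788, 3919 and 4627 in tumoricidal samples against 1635 and 3004 in control samples (log2 difference 0.999, adjusted p = 0.532). Lcn2, a granule protein, had 152, 124 and 171 in tumoricidal samples against 43.0 and 93.7 in control samples (log2 difference 1.22, adjusted p = 0.519). Cxcr2, a neutrophil chemokine receptor, differed by 1.47 (SE 0.50) and Ngp, a granule protein, by 1.163 (SE 0.60). The granule enzymes Prtn3, Elane and Mpo had negative values, of -0.66, -0.35 and -0.29. None of the 11 markers was called, and their part in the Mmp8 and Mmp9 signals was not tested.

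**Figure D2:**
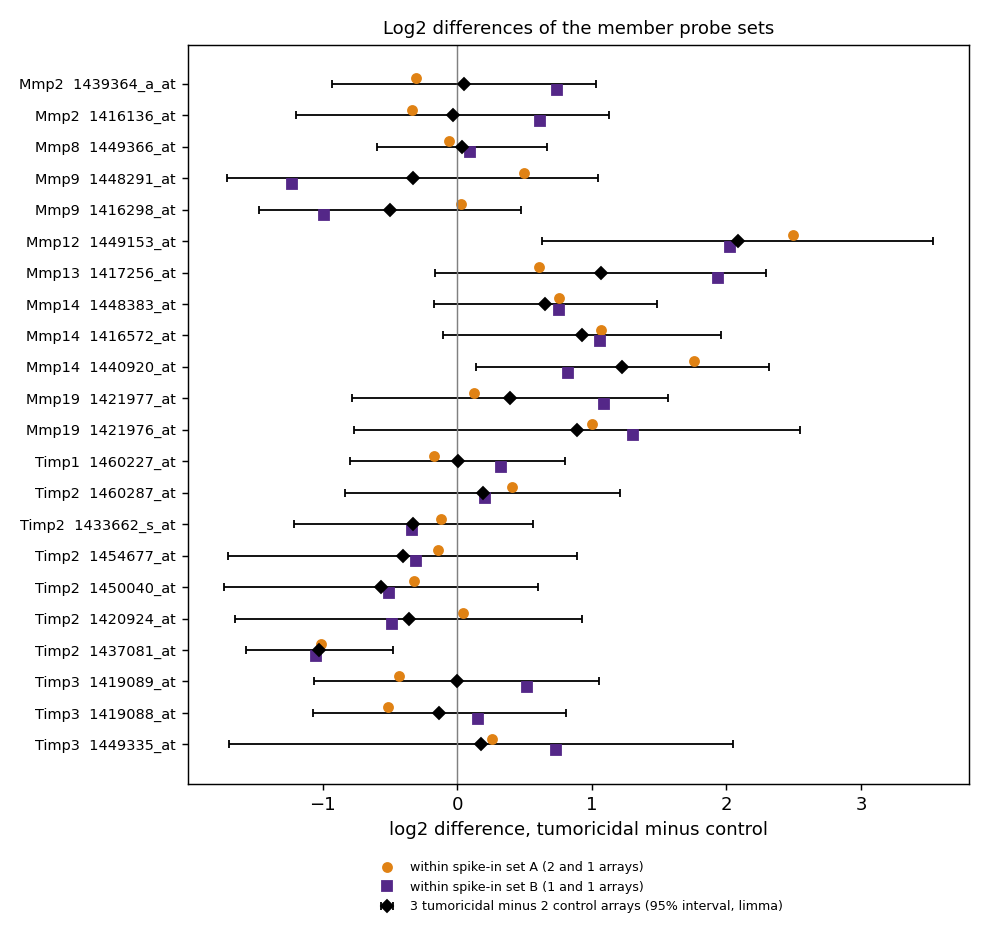
Log2 difference, tumoricidal minus control, of the 22 member probe sets tested, with 95% limma intervals (diamonds) and the differences within spike-in set A (circles) and set B (squares). Mmp12 and the 3 Mmp14 probe sets are positive in both sets, the Mmp2 and Mmp9 probe sets differ in sign between the sets, and 4 of 6 Timp2 probe sets are negative in both.

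Among the inhibitors, Timp2 had 6 probe sets that did not give 1 direction. The brightest had 2649, 1969 and 3729.5 in tumoricidal samples against 1724 and 3227 in control samples. Its groups overlapped, with a log2 difference of 0.19 (SE 0.41, 95% interval -0.83 to 1.21, adjusted p = 0.917). The next had 1411, 1385 and 2097 in tumoricidal samples against 1521 and 2647 in control samples, a log2 difference of -0.33 (SE 0.36, adjusted p = 0.854). In the signals as deposited the groups of this probe set were apart and lower. It then had 1388, 1439 and 1794 in tumoricidal samples against 1910 and 2647 in control samples. Another 3 gave -0.40, -0.57 and -0.36 (SE 0.52, 0.47 and 0.52), with adjusted p from 0.825 to 0.871. On all 5 of these, tumoricidal replicate 3 and control replicate 2, the arrays of set B, were the highest of their groups. Within the sets the brightest gave 0.41 in A and 0.21 in B, while the next 3 named were negative in both, from -0.12 to -0.32 in A and from -0.31 to -0.51 in B. The last of the 5 gave 0.045 in A and -0.48 in B. The direction depended on which control array was kept. Without control replicate 2 the 5 gave 0.64, 0.073, 0.22, -0.018 and 0.33, from the brightest on. Without control replicate 1 they gave -0.26, -0.73, -1.02, -1.12 and -1.05.

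The dimmest Timp2 probe set had the lowest p of all 22. It had 4.98, 1.83 and 0.468 in tumoricidal samples against 9.88 and 9.9 in control samples, so that 2 of 3 tumoricidal arrays were under the floor of 4.8. Its log2 difference was -1.03 (SE 0.22, unadjusted p = 0.00399, adjusted p = 0.292). With values under the floor its size depends on the floor, and it passed the filter only through the control arrays and tumoricidal replicate 1.

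Timp1, a secreted inhibitor that is weak against Mmp14, had 272, 168 and 291 in tumoricidal samples against 241 and 232 in control samples. The controls lay inside the tumoricidal range, and the log2 difference was 0.0025 (SE 0.32, 95% interval -0.79 to 0.80, adjusted p = 0.999). Timp3, which binds to matrix and also inhibits the sheddase Adam17, was dim. Its brightest probe set had 22.3, 10.2 and 18.4 in tumoricidal samples against 20.4 and 12.8 in control samples, a log2 difference of -0.0053 (SE 0.43, 95% interval -1.06 to 1.05, adjusted p = 0.998). The other 2 Timp3 probe sets tested gave -0.13 and 0.18 (SE 0.38 and 0.76).

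Signs of the differences were also counted by role. Of 12 protease probe sets, 9 had positive differences, with 7 positive and 0 negative within both spike-in sets, and with a median of 0.52. With the deposited scaling 7 of the 12 were positive, and likewise with quantile normalization. Of 10 inhibitor probe sets, 3 were positive, with 2 positive and 4 negative within both sets, and with a median of -0.23, and 1 was positive under either of those scalings. Over all probe sets tested, 34% were positive and 18.9% negative within both sets, and the median was 0.086. Probe sets of 1 gene share RNA, so these counts are descriptions. Taking 1 probe set per gene, the median of the 10 genes was 0.12, against 0.13 over 17074 genes.

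The arrays also differed within their groups. Tumoricidal replicate 3 was the highest of its 3 arrays at 16 of 22 member probe sets (72.7%), against 40% of all probe sets tested. Tumoricidal replicate 2 was the lowest at 18 of 22 (81.8%), against 33.9% of all. Control replicate 2 exceeded control replicate 1 at 16 of 22 (72.7%), against 54.2% of all.

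Fibroblasts, which a sort for CD11b should remove, are a known source of Mmp2, Timp1 and Timp3, and fibroblast markers were detected. Of 11 markers 9 were lowest in tumoricidal replicate 2 among the tumoricidal arrays, and 8 had the order replicate 3 above 1 above 2. This was not particular to fibroblast markers. Of 10 macrophage markers all but Mertk were also lowest in replicate 2 among the tumoricidal arrays, against 33.9% of all probe sets tested. Adgre1, Csf1r, Cd68, Itgam, Fcgr3 and Cd14 among them also had the order replicate 3 above 1 above 2. Summed over 11 of 11 fibroblast markers, the signal was 3327, 1470 and 4541 in tumoricidal samples against 3492 and 2113 in control samples. Col3a1, a fibrillar collagen, had 1887, 648 and 2263 in tumoricidal samples against 1842 and 1010 in control samples. Among the 11 markers 4 had positive and 7 negative differences, the median was -0.062, and 0 were called. Pdgfra, a fibroblast receptor, had 50.9, 22.6 and 90.0 in tumoricidal samples against 53.8 and 54.8 in control samples, the same order within the tumoricidal group as Mmp2. Lum, a matrix proteoglycan, had 85.1, 17.1 and 79.6 in tumoricidal samples against 94.0 and 64.7 in control samples. Thy1, which T cells also express, had the opposite order, with 79.9, 148 and 32.7 in tumoricidal samples against 26.6 and 14.3 in control samples (log2 difference 1.90, SE 0.68, adjusted p = 0.568). Fbln1, a matrix glycoprotein, had 17.1, 27.0 and 28.5 in tumoricidal samples against 16.01 and 16.7 in control samples. None of the fibroblast markers was at the floor on all arrays of a group. Their part in the Mmp2, Timp1 and Timp3 signals was not tested.

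**Figure D3:**
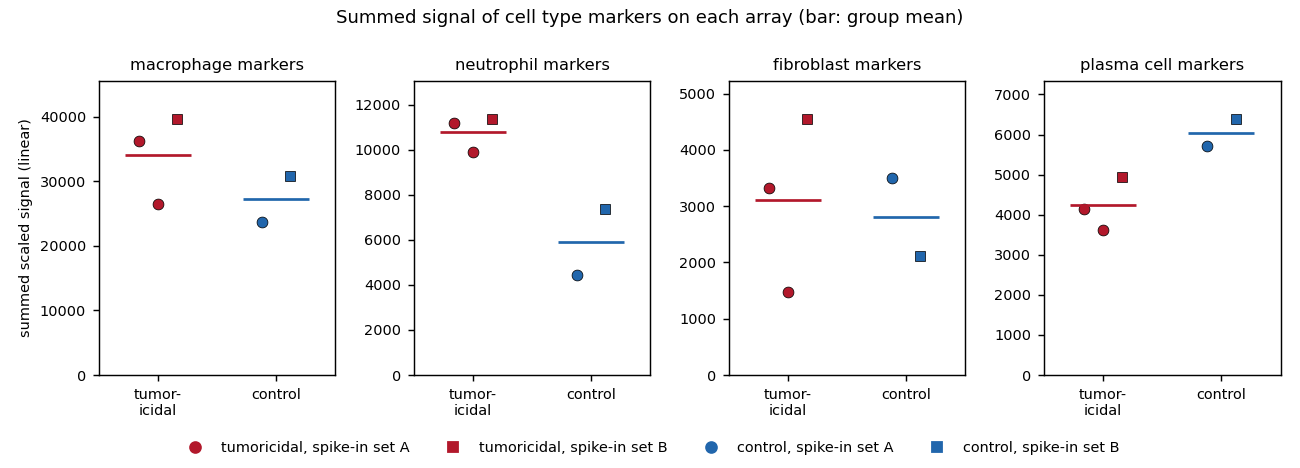
Summed scaled linear signal of 10 macrophage, 11 neutrophil, 11 fibroblast and 11 plasma cell markers on each array, tumoricidal left of control, with bars at group means and marker shape giving the spike-in set. Neutrophil sums are 9887 to 11342 in tumoricidal and 4446 to 7352 in control samples, plasma cell sums are lower in tumoricidal samples, and fibroblast sums overlap.

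Macrophage markers were summed in the same way. Their sum over 10 markers was 26479 to 39619 in tumoricidal and 23689 to 30896 in control samples, with 9 positive differences, a median of 0.35 against 0.13 over all genes, and 0 called. That median was 0.12 with the deposited scaling and 0.092 with quantile normalization. Aif1, a calcium-binding protein of macrophages, had 3447, 2178 and 3014 in tumoricidal samples against 1102 and 1501 in control samples (log2 difference 1.14, SE 0.31, adjusted p = 0.416). The Fc receptors Fcgr3 and Fcgr1 differed by 0.57 (SE 0.30) and 0.51 (SE 0.27). Plasma cell markers, which the myeloma also expresses, summed to 3619 to 4943 in tumoricidal and 5709 to 6378 in control samples, with 8 of 11 negative. Xbp1 made up most of each tumoricidal sum and went the other way. It had 3132, 3098 and 3297 in tumoricidal samples against 2456 and 2721 in control samples (0.30, SE 0.23). Prdm1 was also higher with the groups apart (0.66, SE 0.37). Pou2af1, a B-lineage cofactor, differed by -3.24 (SE 0.28, adjusted p = 0.0528) and Jchain, the immunoglobulin joining chain, by -2.80 (SE 0.85), while Tnfrsf17, a plasma cell receptor, was under the floor on all 3 tumoricidal arrays and had 24.2 and 37.2 in control samples. Markers of T and natural killer cells summed to 551 to 1315 in tumoricidal and 112 to 172 in control samples, with 7 of 8 positive and a median of 2.29. Klrk1, an activating receptor of natural killer cells, differed by 2.52 (SE 0.34, adjusted p = 0.139). Eomes, a transcription factor of these cells, differed by 2.58 (SE 0.51) and Cd247, a T-cell receptor chain, by 2.32 (SE 0.99). Eomes and Cd247 were under the floor in control replicate 2, at 1.6 and 1.3, so these sizes depend on the floor. Cd247 had 12.7, 103 and 11.7 in tumoricidal samples against 5.18 and 1.3 in control samples. Cd4 had a negative difference, of -0.26 (SE 0.88). Endothelial markers summed to 174 to 207 in tumoricidal and 155 to 201 in control samples, and keratinocyte or adipocyte markers to 56.4 to 99.5 in tumoricidal and 51.6 to 64.5 in control samples. Of 8 endothelial markers, 3 were positive and 5 negative, with a median of -0.26. Among them Vwf, Cldn5 and Pecam1 differed by 0.96, -0.50 and 0.42. Of 6 keratinocyte or adipocyte markers, 4 were positive and 2 negative, with a median of 0.39. The keratin Krt10 differed by 0.50, and the adipocyte marker Adipoq, near the floor, by -0.47 (SE 0.27). Whether any of these cells contributed to the Mmp12, Mmp13 or Mmp14 signals was not tested.

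The other genes of matrix breakdown were read from 5 lists with 78 measured genes, of which 0 were called by limma over all probe sets, against 0.0644% of all genes, and 3 were higher and 5 lower at an unadjusted p under 0.05, against 6.12% and 2.79% of all genes. In the plasminogen system, whose protease plasmin can activate metalloproteinase precursors, Plau and its receptor Plaur had the groups apart. Plau, the urokinase that makes plasmin, had 666, 291 and 731 in tumoricidal samples against 103 and 202 in control samples (log2 difference 1.85, SE 0.52, adjusted p = 0.437). Plaur had 706, 599 and 1496 in tumoricidal samples against 265 and 472 in control samples (1.28, SE 0.49, adjusted p = 0.600). Both were of similar size within the sets, with 2.10 and 1.86 for Plau and 1.30 and 1.67 for Plaur in A and B. Serpinb2, an inhibitor of urokinase, had 279, 164 and 1009 in tumoricidal samples against 1263 and 1184 in control samples (-1.77, SE 0.76, adjusted p = 0.669), but only -0.23 within set B. The whole list of 15 plasminogen and cathepsin genes had a median of 0.24, with 9 positive and 6 negative, but 6 positive and 9 negative with quantile normalization.

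Of 13 other metalloproteinase and inhibitor genes measured, 7 were positive and 6 negative, with a median of 0.045. Mmp3, stromelysin, had 23.7, 24.7 and 54.1 in tumoricidal samples against 65.5 and 52.0 in control samples (-0.88, SE 0.43, adjusted p = 0.739). Mmp24, a membrane-type protease, differed by -0.74 (SE 0.38, adjusted p = 0.754). Both were negative in set A only (-1.44 and -1.17), with 0.058 and 0.0056 within set B. Timp4, the remaining inhibitor of the family, is named after its values were seen: it had 7.63, 6.16 and 7.01 in tumoricidal samples against 14.3 and 17.1 in control samples, just above the floor (-1.18, SE 0.25, adjusted p = 0.278).

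The 13 ADAM and ADAMTS proteases, relatives that shed surface proteins or cut proteoglycans, had a median of 0.035 with 9 positive and 4 negative, but 4 positive and 9 negative with either the deposited scaling or quantile normalization. Adam19 had 53.9, 59.2 and 33.2 in tumoricidal samples against 77.7 and 111 in control samples (-0.97, SE 0.36, adjusted p = 0.582). Adamts4, an aggrecanase, differed by -1.02 (SE 0.38, adjusted p = 0.585), and Adam12 by 0.92 (SE 0.38, adjusted p = 0.649). Both were dim. Adamts4 had 8.64, 7.03 and 11.0 in tumoricidal samples against 12.8 and 24.6 in control samples. Adam12 had 17.0, 14.8 and 27.8 in tumoricidal samples against 8.04 and 12.7 in control samples.

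Matrix proteins, the substrates, had 15 of 20 measured genes negative and a median of -0.18, with the groups apart at 6 lower and 0 higher genes, against 6.51% and 17% of all genes. Thbs1, a matrix glycoprotein, had 104, 41.3 and 109 in tumoricidal samples against 232 and 391 in control samples (-1.96, SE 0.52, adjusted p = 0.402). Col4a1, a chain of collagen IV, had 53.8, 47.2 and 24.0 in tumoricidal samples against 97.8 and 61.6 in control samples (-0.98, SE 0.44, adjusted p = 0.693). Lama4, a laminin chain, overlapped between the groups, with a log2 difference of 1.02 (SE 0.89). It was under the floor in tumoricidal replicate 2, at 1.64, and in control replicate 2, at 2.1.

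Inducers and regulators of these proteases had a median of 0.27 over 17 measured genes, 12 of them positive, against 11 with the deposited scaling and 8 with quantile normalization. Ifng, the T-cell and natural killer cell cytokine, had 41.6, 84.7 and 23.3 in tumoricidal samples against 10.9 and 1.6 in control samples, where control replicate 2 was under the floor (2.59, SE 0.64, adjusted p = 0.365). Il10 had 65.5, 41.1 and 462 in tumoricidal samples against 151 and 470 in control samples (-1.31, SE 1.12, adjusted p = 0.831). Fosl1, an AP-1 subunit, differed by -0.78 (SE 0.67, adjusted p = 0.834), with -1.61 within set A and 0.63 within set B. It was dim, with 10.8, 2.4 and 23.6 in tumoricidal samples against 21.9 and 15.3 in control samples. Tumoricidal replicate 2 was under the floor. Of the other AP-1 subunits listed, Junb differed by 0.41 (SE 0.37), Fosl2 by 0.27 (SE 0.35), Fos by 0.25 (SE 0.24) and Jun by -0.17 (SE 0.33).

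**Figure D4:**
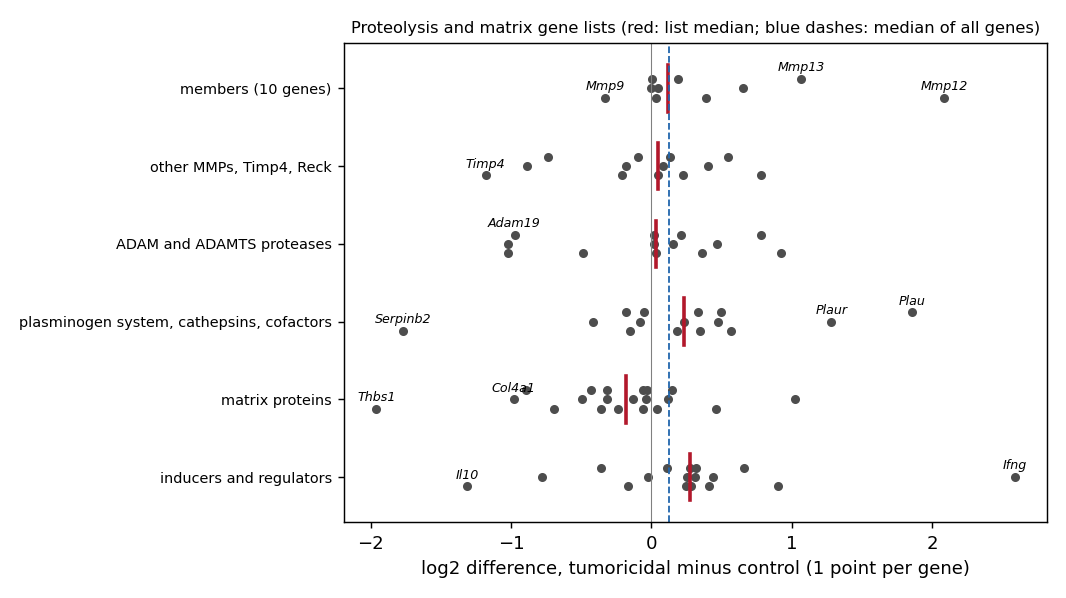
Log2 difference, tumoricidal minus control, of each member gene and of the genes in 5 related lists (points), with list medians (red) and the median of all genes at 0.13 (blue dashes). Mmp12, Plau and Ifng lie farthest to the right in their rows, and Thbs1 and Serpinb2 farthest to the left.

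The genes most like each of the 3 members with the largest differences were found by the root mean square distance between log2 values centred on their mean, over the 5 arrays and 17074 genes. Nearest to Mmp12 were Vcam1 (0.16), an adhesion molecule, Cd274 (0.24), a checkpoint ligand, and Il4 (0.27), a cytokine that was under the floor in control replicate 1, at 3.11. Vcam1 had 461, 404 and 818 in tumoricidal samples against 91.0 and 201 in control samples, the same order of arrays as Mmp12 in both groups. Nearest to Mmp13 were Slamf7 (0.10), Pcdh7 (0.12) and Shpk (0.13), where Pcdh7 and Shpk were under the floor in both control arrays. Nearest to Mmp14 were Aptx (0.044), Fbxl2 (0.056) and Ikbke (0.056). With 5 arrays many genes lie close to any pattern, and the distances are descriptions.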

How the data were processed

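Sorting by FACSAria and Trizol extraction are given in the labels' protocols, as is the labelling of 6 µg of total RNA as biotinylated cRNA by Affymetrix's standard method. Intensity values on a linear scale, as the authors deposited them for 5 arrays, were the starting point, and the software behind them is not given in the sources used here. Trimmed of 2% at either end, every array averaged 100.0, so the table had been scaled globally before deposit. Array medians still ran from 15.4 to 22.6, and each array was brought to their median. After removal of 64 control probe sets, signals below the pooled 25th percentile (4.8) were set to that floor and log2 was taken. Those at the floor on all arrays (3984) were left out, and 41053 were tested in limma with lmFit and plain eBayes, two-sided, at a Benjamini-Hochberg adjusted p under 0.05 and with no covariate. The code was tested on simulated data. The platform annotation named 1 symbol for 34945 probe sets, several for 932 and none for 9160. Each gene is represented by its single-symbol probe set with the highest mean log2 signal.

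Named genes were all 10 members, the members of each list past the threshold or otherwise up to 3 with the largest absolute difference and a mean above the median of all values, and the 3 genes most like each of 3 members. List genes named beyond this rule, among them S100a8, Col3a1 and Pdgfra, were picked after their values were seen. The members and lists were chosen with earlier results of these data known. Listed genes with no probe set tested are not analysed here. Pearson's r over probe sets was 0.941 to 0.965 between arrays, and 0 pairs of arrays held identical values. Alternatives were other scalings, floors, filters and variance models, blocks for spike-in set and replicate number, and each array left out. R 4.3.3, limma 3.58.1, Python 3.11.15 and, for figures, matplotlib 3.10.9 were used. Depth is not defined for arrays.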

Additional observations from a re-analysis of the deposited data

How the results depend on the processing

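Under every alternative run, 0 of the member probe sets tested and 0 of the listed pathway genes tested were called by limma. A filter that kept probe sets brighter than the median tested 18 member probe sets and 57 of the 78 pathway genes, and gave 168 higher and 25 lower calls among other probe sets; the other alternatives tested 21 to 23 and 76 to 78. The lowest adjusted p of a member was 0.156, for Mmp12 under that filter. The median log2 difference of all probe sets was 0.086, against -0.11 with the deposited scaling and 0.0016 with quantile normalization. Mmp12, Mmp13 and Mmp14 kept a positive sign under every alternative. The other 7 genes changed sign under some alternatives, given next, and the cause was not tested.

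With the deposited scaling Mmp2 was -0.18, Mmp8 -0.19, Timp1 -0.23 and Timp2 -0.040, and with quantile normalization Mmp2 was -0.036, Mmp8 -0.11, Timp1 -0.21 and Timp2 -0.18. Timp3 was 0.034 with a floor at the pooled 40th percentile and 0.0073 with no floor and 16 added. Within spike-in set A, Mmp2 was -0.31, Mmp8 -0.065, Mmp9 0.50 and Timp1 -0.17, and within set B Timp3 was 0.52. On other probe sets Mmp2 was -0.035, Timp3 0.18 and Timp2 -0.33, -0.40, -0.57, -0.36 and -1.03.

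Control samples have no replicate 3, so with the replicate number as a block only replicates 1 and 2 carry the comparison. This replicate block gave Mmp2 -0.28, Mmp19 -0.046, Timp1 -0.15 and Timp2 -0.047, and left 0 probe sets called against 14 higher and 7 lower without it. Replicates 1 and 2 of the groups did not deviate together by number (r = -0.13 across probe sets). The control arrays lie in different spike-in sets and these tumoricidal arrays in set A. The check therefore cannot settle a pairing, and the number is not taken as one.

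With single arrays left out, Mmp2 ran from -0.28 to 0.32, Mmp8 from -0.10 to 0.17, Mmp9 from -1.10 to 0.43, Mmp12 from 1.32 to 2.85, Mmp13 from 0.65 to 1.47, Mmp14 from 0.36 to 0.95, Mmp19 from -0.046 to 0.64, Timp1 from -0.15 to 0.25, Timp2 from -0.26 to 0.64 and Timp3 from -0.34 to 0.33. Leaving out any single array left 0 probe sets called in all.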

Other observations

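Tumoricidal replicate 2, the lowest of its group at 18 of 22 member probe sets, had the highest Cd3d and Cd3e signals of all arrays. Klrk1, from the same marker list, was lowest of its group there, at 304 against 593 and 425. Cd3d, a chain of the T-cell receptor complex, had 22.8, 397 and 20.8 in tumoricidal replicates 1 to 3, against 30.0 and 11.3 in control samples. Cd3e had 8.75, 196 and 9.58 in tumoricidal samples against 8.44 and 2.6 in control samples, the last under the floor. The fibroblast marker sum of tumoricidal replicate 2 was the lowest of the 5 arrays, at 1470, and its macrophage marker sum the lowest of its group, at 26479. The part of any of these cells in its member signals was not tested. Tumoricidal replicate 3 had the highest Tnf signal, at 2155 against 443 and 276 in the other tumoricidal samples, and 442 and 959 in control samples.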
